A study of Mus musculus with 12 samples.

Results

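Mouse neonatal cardiac fibroblasts that received the cardiac reprogramming factors together with a hairpin against Ptbp1 were compared with fibroblasts that received the factors alone. Both groups had 2 RNA-seq libraries, collected after 3 days, and the comparison took in every gene with at least 1 CPM, its reads scaled by the library total, in at least 2 of these 4 libraries. That rule kept 12697 of the 23423 genes in the table. The MGT-alone wells received no hairpin of any kind, and values of wells with a non-targeting hairpin are given beside the comparison. The values of a gene in the 3 groups were therefore read together, to see which differences from MGT alone were also present with the non-targeting hairpin.

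The wells called shPtbp1 here held Thy1+ cardiac fibroblasts from CD1 mice at postnatal day 1.5, transduced with the retrovirus pMXs-puro-MGT and the lentiviral hairpin shPtbp1-271. A second group, called shNT, received the same retrovirus and a lentivirus with a non-targeting hairpin. The MGT wells received pMXs-puro-MGT alone, and a control group received pMXs-puro without factors per its source label, while its titles name lacZ. MGT stands for the transcription factors Mef2c, Gata4 and Tbx5, which all 3 MGT groups carried. Silencing rests on 1 hairpin, and presence of a lentivirus differs between the shPtbp1 and MGT wells together with the hairpin, so these cannot be told apart in this comparison. The source label of shPtbp1 replicate 2 names Ptbp2, whereas its title and its transduction label name Ptbp1. No label says whether 2 wells of a group came from separate hearts or cultures, so p-values here measure the spread between these samples, which may be technical.

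Ptbp1 encodes a protein that binds pyrimidine-rich stretches of pre-mRNA and keeps many alternative exons out of the mature transcript. One of its targets is its paralog Ptbp2, the form of nerve and germ cells: when Ptbp1 protein causes a short Ptbp2 exon to be skipped, the reading frame is lost and the transcript is degraded. Ptbp1 also acts on the matching exon of its own transcript. In direct cardiac reprogramming, fibroblasts are pushed by heart transcription factors to turn on muscle genes without passing through a stem cell state, and splicing is remodelled on the way.

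Both exons are 34 bases long in the GENCODE M21 annotation of GRCm38, and they are shown because Ptbp1 protein is known to act on both transcripts through them. Their letters are identical at 26 of 34 positions, or 76.5%. The Ptbp1 exon lies at chr10:79862014-79862047 on the plus strand and is in 3 of 6 coding transcripts. It is exon 9 in the first of these that was read, and other transcripts may number it otherwise. The Ptbp2 exon lies at chr3:119724612-119724645 on the minus strand and is in 3 of 5 coding transcripts, as exon 10 in the first of these that was read. Both are written 5′ to 3′ on the strand of the gene, with no part marked.
Ptbp1 exon 9: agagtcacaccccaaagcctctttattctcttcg
Ptbp2 exon 10: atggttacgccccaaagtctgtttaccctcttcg

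Ptbp1 was 4.63-fold lower with its hairpin than with MGT alone, and Ptbp2 was 5.05-fold higher. Ptbp1 had 81.7 and 79.1 scaled CPM in the shPtbp1 libraries, 362 and 367 in shNT and 366 and 382 in MGT. The shPtbp1 values lay far under all others, and the shNT values lay at the low end of the MGT range. The log2 fold change against MGT alone was -2.21 ± 0.034 (SE, adjusted p = 1.11e-19), and that of shNT against MGT alone was -0.04 (adjusted p = 0.423). Scaled CPM are CPM after division by a size factor per library, with no correction for gene length, so levels are not compared between genes, and every test is limma's on log2(scaled CPM + 0.5), so fold changes of low genes are understated. The gene lies on chromosome 10 from 79854427 to 79864771.

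Ptbp2, on the minus strand of chromosome 3 from 119718742 to 119784466, had 134 and 137 scaled CPM in the shPtbp1 libraries, 30.6 and 29.6 in shNT and 27.3 and 25.5 in MGT. Every shPtbp1 value exceeded every other. Its log2 fold change was 2.34 ± 0.0491 (SE, adjusted p = 1.28e-17) against MGT alone and 2.15 against shNT, while shNT exceeded MGT alone by 0.19 (adjusted p = 0.00469). Ptbp3, the remaining member of the family, had 134 and 130.5 scaled CPM in the shPtbp1 libraries against 158 and 164 in MGT, which do not overlap. It fell by 0.28 on the log2 scale (SE 0.0358, adjusted p = 3.18e-06), and in shNT against MGT alone by 0.14 (adjusted p = 0.00391). Gene-level reads do not show whether either short exon was included.

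**Figure D1:**
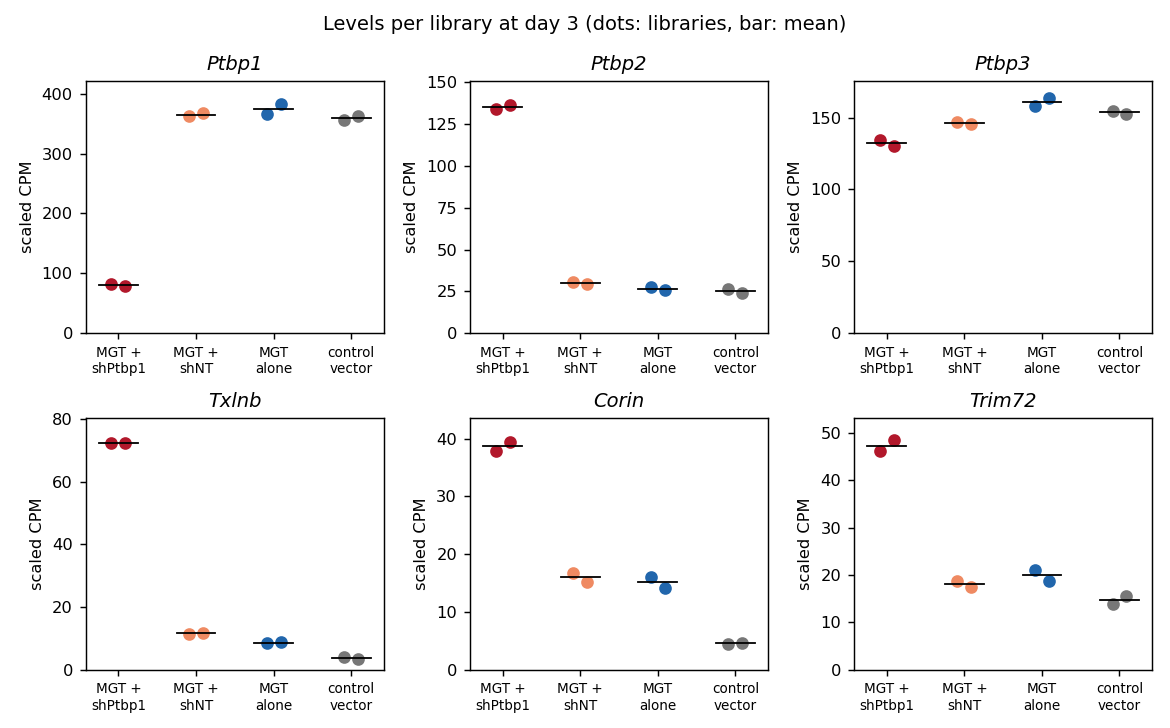
Scaled CPM of 6 genes in each day 3 library (dots) with the group mean (bar), for MGT + shPtbp1, MGT + shNT, MGT alone and the control vector. Ptbp1 is low and Ptbp2, Txlnb, Corin and Trim72 are high in both shPtbp1 libraries, and Ptbp3 moves little.

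The delivered factors were present in all MGT groups, and at lower levels in the control vector group. The control libraries had 315 and 332 scaled CPM of Mef2c, 343 and 377 of Gata4 and 648 and 681 of Tbx5. Fresh fibroblasts had 138 and 137 of Mef2c, 217 and 216 of Gata4 and 6.86 and 7.45 of Tbx5. Where the control reads came from was not tested. Mef2c had 549 and 516 scaled CPM in the shPtbp1 libraries against 724 and 766 in MGT, with no overlap, and its log2 fold change was -0.48 ± 0.039 (SE, adjusted p = 5.96e-09). The shNT libraries too had less Mef2c than MGT alone (-0.65, adjusted p = 8.58e-11). Gata4 had 662 and 651 scaled CPM in the shPtbp1 libraries against 687 and 705 in MGT and did not pass (log2 fold change -0.08, adjusted p = 0.0977), but passed with trimmed-mean scaling (-0.11, adjusted p = 0.0293) and with edgeR on recovered reads (-0.11, adjusted p = 0.0314). Tbx5 had 1650.4 and 1768 scaled CPM in the shPtbp1 libraries against 1779 and 1859 in MGT, ranges that do not overlap by a small margin, and gave -0.09 (adjusted p = 0.154), or -0.12 with edgeR (adjusted p = 0.0444). Reads from the viral copies and from the cells' own genes cannot be told apart at this level.

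Of the 12697 genes, 3357 were higher with shPtbp1 than with MGT alone (26.4%) and 2651 were lower (20.9%), at an adjusted p under 0.05. Most of these differences were small: 77.5% of the called genes differed by under 0.5 log2 units, and the smallest called difference was 0.081. The median over all members was a log2 fold change of 0.0315. At least 2-fold differences were rare upwards, with 41 genes (0.323%), and commoner downwards, with 453 genes (3.57%). On the recovered reads, the quasi-likelihood test of edgeR called 2869 higher (22.6%) and 2967 lower (23.4%). Calls in either direction came to 6008 (47.3%), and replicates of both groups did not overlap in 72% of genes. Beside these, 2312 genes were higher (18.2%) and 2414 lower (19%) with shPtbp1 than with shNT, of which 57 (0.449%) and 28 (0.221%) by at least 2-fold. With shNT 3320 genes were higher (26.1%) and 2674 lower (21.1%) than with MGT alone, of which 35 (0.276%) and 441 (3.47%) by at least 2-fold.

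The 4 libraries held 73199831 to 92946708 assigned reads, and 1 read was worth 0.0108 to 0.0137 CPM. Called shares rose with level, at 41.5% of genes under 5 scaled CPM and 56.2% of genes at 100 or more. The root-mean-square SD between replicates, taken over the genes of the fit, was 0.102 log2 units in the shPtbp1 group and 0.0861 in the MGT group. In 12278 genes all 4 libraries had at least 1 CPM, and of these 3266 were higher and 2464 lower. The rule also let in 73 genes that reached 1 CPM in both shPtbp1 libraries and no MGT library, and 142 genes with the opposite pattern. Genes that enter through 1 group could hardly fail to differ: 63 of the first set were higher and 133 of the second lower. The second set gave 70 of the 453 genes that were at least 2-fold lower. Just outside the rule, 152 genes reached 1 CPM in 1 of the 4 libraries.

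**Figure D2:**
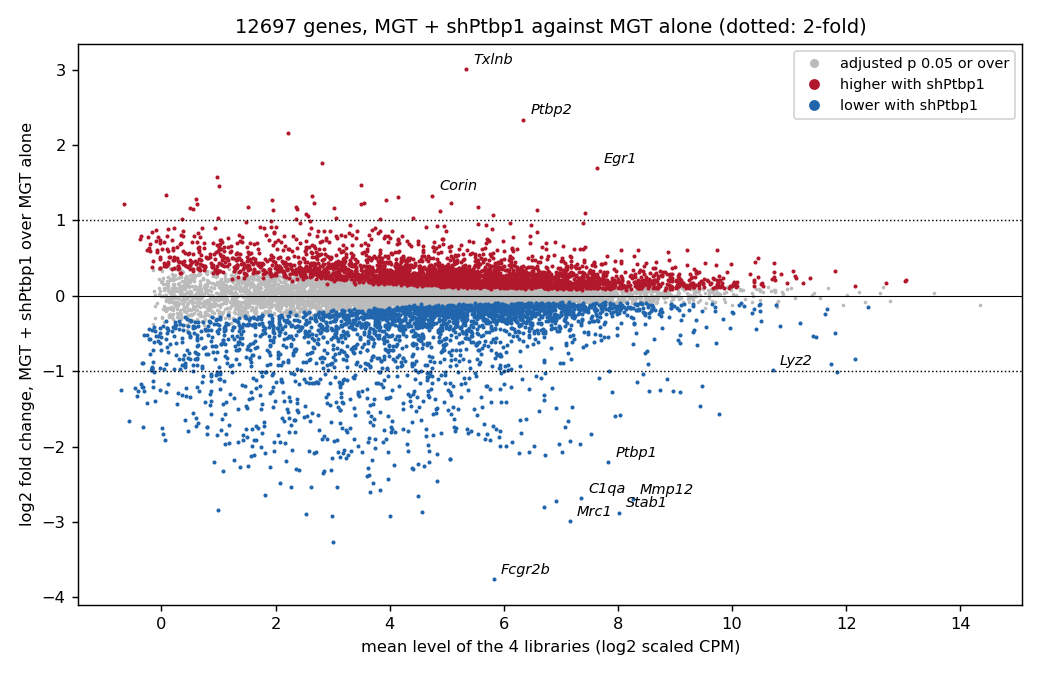
Log2 fold change of MGT + shPtbp1 over MGT alone against the mean level of the 4 libraries (log2 scaled CPM), 1 dot per gene, with called genes in colour and dotted lines at 2-fold. The cloud is flat near 0, with 41 genes above the upper line that include Txlnb and Ptbp2, and 453 genes under the lower line that include Fcgr2b, Mrc1 and Stab1.

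Txlnb had the largest increase against MGT alone of the genes with at least 10 scaled CPM, ahead of Ptbp2. It encodes beta-taxilin, a coiled-coil protein of striated muscle, and lies on chromosome 10 from 17796226 to 17845665. Its level was 72.4 and 72.3 scaled CPM in the shPtbp1 libraries, 11.3 and 11.8 in shNT and 8.4 and 8.8 in MGT. Both shPtbp1 libraries were well above all others. The log2 fold change was 3.0 ± 0.0735 (SE, adjusted p = 1.2e-16) against MGT alone and 2.59 against shNT, whereas shNT exceeded MGT alone by 0.41 (adjusted p = 0.000158).

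Txlnb and Ptbp2 headed a group of genes that were higher with shPtbp1 than in both other MGT groups. The 10 largest of them were picked for passing both tests, which share the shPtbp1 libraries. Corin, the protease that activates pro-natriuretic peptides in heart muscle, had 37.9 and 39.4 scaled CPM in the shPtbp1 libraries, 16.8 and 15.2 in shNT and 16 and 14.2 in MGT. Against MGT alone this was 1.33 ± 0.0697 (SE, adjusted p = 9.62e-12). Trim72, which takes part in membrane repair in striated muscle, had 46.2 and 48.5 scaled CPM in the shPtbp1 libraries, 18.7 and 17.6 in shNT and 21 and 18.8 in MGT. Against MGT alone it gave 1.23 ± 0.0862 (SE, adjusted p = 7.57e-10). For both genes the shNT and MGT values lay close together, and shNT against MGT alone did not pass (adjusted p = 0.366 for Corin and 0.246 for Trim72).

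Car14, a membrane-bound carbonic anhydrase, had 16 and 17.3 scaled CPM in the shPtbp1 libraries, 7.56 and 7.08 in shNT and 7.07 and 6.52 in MGT. Syndig1, a protein of excitatory synapses, had 11 and 12 scaled CPM in the shPtbp1 libraries, 4.9 and 5.63 in shNT and 5.0 and 4.73 in MGT. The endosomal chloride/proton exchanger gene Clcn6 had 28.5 and 28.9 scaled CPM in the shPtbp1 libraries, 14.6 and 14 in shNT and 15.2 and 12.5 in MGT. All 3 showed the shPtbp1 libraries apart and the other groups together, with log2 fold changes against MGT alone of 1.23, 1.16 and 1.03.

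A pair of small leucine-rich proteoglycans that bind collagen were in the same group. Prelp had 219 and 223 scaled CPM in the shPtbp1 libraries, 97.7 and 96.6 in shNT and 105 and 121 in MGT. Fmod had 40.4 and 41.1 scaled CPM in the shPtbp1 libraries, 16.6 and 16.8 in shNT and 19.3 and 23.1 in MGT. In both, shNT lay under MGT alone (log2 fold changes of -0.21 and -0.33), so the rise with shPtbp1 was larger against shNT (1.18 and 1.26) than against MGT alone (0.97 and 0.93). Slc22a17, which encodes a receptor for the iron-carrying protein lipocalin 2, had 14.5 and 17.7 scaled CPM in the shPtbp1 libraries, 8.26 and 7.97 in shNT and 7.37 and 5.86 in MGT. Against MGT alone it gave 1.22 ± 0.0997 (SE, adjusted p = 7.14e-09).

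Ptbp1 itself headed the genes that were lower with shPtbp1 than in both other MGT groups. Il1rn, which encodes the antagonist of the interleukin 1 receptor, had 5.47 and 5.99 scaled CPM in the shPtbp1 libraries, 16.2 and 14.7 in shNT and 20.5 and 18.3 in MGT. The change against MGT alone was -1.67 ± 0.0782 (SE, adjusted p = 1.77e-12) on the log2 scale. Slc38a6, of an amino acid transporter family, had 8.4 and 9.03 scaled CPM in the shPtbp1 libraries, 20.2 and 20.3 in shNT and 32.9 and 29.8 in MGT, a log2 fold change of -1.79. In both genes shNT lay between shPtbp1 and MGT, nearer to MGT.

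Reck, a membrane-anchored inhibitor of matrix metalloproteinases, had 31.3 and 28 scaled CPM in the shPtbp1 libraries, 64.9 and 64.9 in shNT and 76 and 82.4 in MGT. The formin gene Fmnl3, whose protein builds actin filaments, had 53 and 48 scaled CPM in the shPtbp1 libraries, 125 and 126 in shNT and 108 and 109 in MGT. For Fmnl3 the shNT libraries were the highest of the 3 groups, by 0.21 over MGT alone (adjusted p = 0.000967). Reck fell by 1.40 and Fmnl3 by 1.10 on the log2 scale against MGT alone.

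The macrophage elastase gene Mmp12 had 82.2 and 80.7 scaled CPM in the shPtbp1 libraries, 173 and 174 in shNT and 540.0 and 524 in MGT, and each group lay apart from the others. Its log2 fold change over MGT alone was -2.70 with shPtbp1 and -1.61 with shNT, and -1.09 between both hairpins (adjusted p = 1.11e-12). Cxcl16, a chemokine, had 18.9 and 19.3 scaled CPM in the shPtbp1 libraries, 40.3 and 41 in shNT and 42.7 and 43.6 in MGT. Pepd, a peptidase that splits proline dipeptides released from collagen, had 18.8 and 19.5 scaled CPM in the shPtbp1 libraries, 38.4 and 37.7 in shNT and 40.8 and 39.9 in MGT. In Cxcl16 and Pepd the shNT and MGT groups did not differ past the threshold (adjusted p = 0.144 and 0.267).

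Slc16a3, which exports lactate, had 12.4 and 12.5 scaled CPM in the shPtbp1 libraries, 27.3 and 27 in shNT and 24.7 and 24 in MGT. Rnf128, a ubiquitin ligase gene, had 15.9 and 15.9 scaled CPM in the shPtbp1 libraries, 31.6 and 29.1 in shNT and 34.3 and 34 in MGT. Their log2 fold changes against MGT alone were -0.94 and -1.08.

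**Figure D3:**
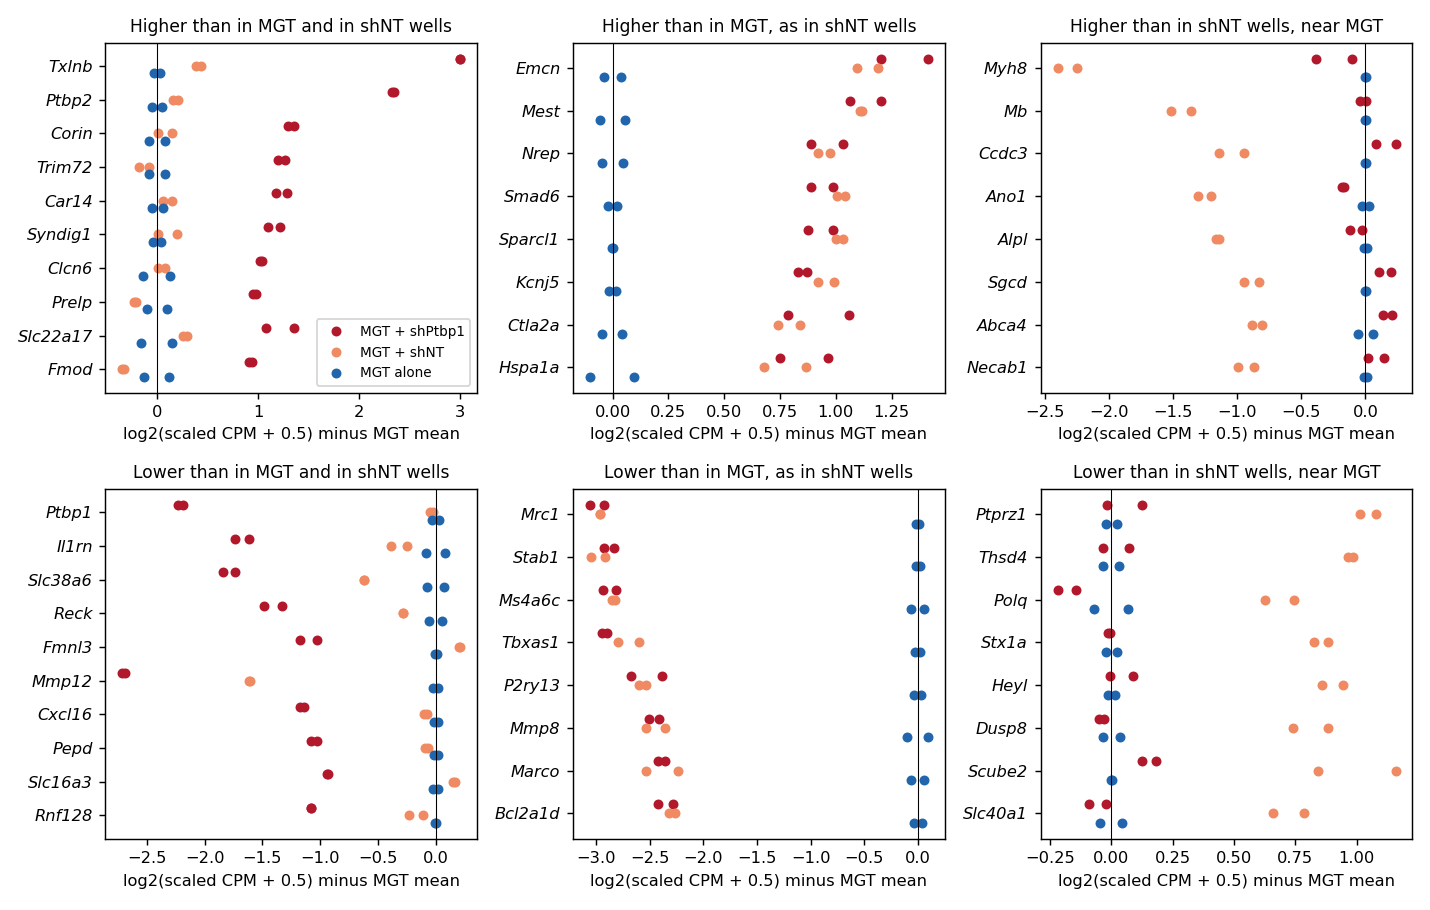
Log2(scaled CPM + 0.5) of each library minus the MGT-alone mean, for the named genes of 6 patterns, with MGT + shPtbp1, MGT + shNT and MGT alone as dots. In the left panels the shPtbp1 dots stand alone, in the middle panels the shPtbp1 and shNT dots lie together away from MGT, and in the right panels shPtbp1 lies with MGT and shNT stands alone. The genes of each panel were picked for its pattern.

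The largest decreases against MGT alone included the macrophage markers Mrc1, C1qa, C1qb, C1qc and Cx3cr1, beside Cd28 and Il21r, receptors known from lymphocytes. The 15 largest ran from -2.57 to -3.76 on the log2 scale, and in shNT against MGT alone the same 15 genes had values between -1.61 and -4.14. These comparisons share the MGT libraries, and shPtbp1 differed from shNT by -1.09 to 0.41 in these genes. Fcgr2b, the inhibitory receptor for antibody Fc, had 7.34 and 7.31 scaled CPM in the shPtbp1 libraries, 5.47 and 5.53 in shNT and 109 and 102 in MGT. The shPtbp1 libraries were slightly above the shNT libraries (0.38, adjusted p = 0.000187), and both were far under MGT alone. In bulk RNA, fewer macrophages and less RNA per macrophage cannot be told apart.

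Mrc1, the macrophage mannose receptor, had 32.9 and 30.01 scaled CPM in the shPtbp1 libraries, 32 and 32 in shNT and 257 and 251 in MGT. Its log2 fold change against MGT alone was -2.99 ± 0.0399 (SE, adjusted p = 4.57e-20), and against shNT it was -0.03 (adjusted p = 0.658). Stab1, a scavenger receptor gene, had 63.6 and 59.5 scaled CPM in the shPtbp1 libraries, 59.8 and 54.4 in shNT and 461 and 449 in MGT. In Mrc1 the shPtbp1 and shNT libraries overlapped, and in Stab1 one shPtbp1 library lay within the shNT range. The differences from MGT alone were -2.99 and -2.88.

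The 3 chains of complement C1q, made mostly by macrophages, were all lower. C1qa had 45.1 and 42.6 scaled CPM in the shPtbp1 libraries, 59.6 and 62.2 in shNT and 291 and 279 in MGT. C1qb had 25.7 and 25.9 scaled CPM in the shPtbp1 libraries, 29.8 and 31.4 in shNT and 181 and 185 in MGT. C1qc had 31.4 and 31.1 scaled CPM in the shPtbp1 libraries, 41.5 and 41.3 in shNT and 216 and 204 in MGT. In each the shPtbp1 libraries were lowest, shNT was slightly higher and MGT was far above both, with log2 fold changes of -2.69, -2.80 and -2.73 against MGT alone and -0.47, -0.24 and -0.40 against shNT.

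The rest of the 15 were likewise low in both hairpin groups. Cx3cr1, the fractalkine receptor, had 0.999 and 0.974 scaled CPM in the shPtbp1 libraries, 1.77 and 1.18 in shNT and 11 and 10.2 in MGT, and it was let in through the MGT libraries. Tbxas1, thromboxane synthase, had 3.32 and 3.43 scaled CPM in the shPtbp1 libraries, 4.33 and 3.74 in shNT and 29.3 and 28.4 in MGT. Ccr1, a chemokine receptor, had 6.55 and 5.15 scaled CPM in the shPtbp1 libraries, 8.76 and 7.42 in shNT and 41.3 and 37.6 in MGT. The remaining genes of the 15, Fcrls, Il21r, Ms4a6c, Pik3cg and Cd28, had log2 fold changes between -2.57 and -3.26 against MGT alone and between -2.09 and -3.33 in shNT against MGT alone.

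All 14 macrophage markers in the table were lower with shPtbp1 than with MGT alone, from -2.99 in Mrc1 to -0.99 in Lyz2, with a median of -1.84, against 2651 of 12697 members. Of the 14, 1 (Cx3cr1) reached 1 CPM with MGT alone and not with shPtbp1, so its place in the comparison fixed its direction. As the rule requires, none of the 14 was at 0 in all 4 libraries of the comparison. Summed, they came to 1661.5 and 1711.2 scaled CPM in the shPtbp1 libraries, 1501.4 and 1557.4 in shNT, and 4437.7 and 4307.3 in MGT, while the control vector had 4414.9 and 4188.2. The MGT mean was 2.59 times the shPtbp1 mean. Against shNT, 1 marker was higher, 8 were lower and 5 did not pass (background 18.2% higher and 19% lower); in shNT against MGT alone all 14 were lower (background 21.1%).

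The 453 genes that were at least 2-fold lower held 1.04 and 1.03% of the assigned reads in the shPtbp1 libraries. The shares were 1.17 and 1.16% in shNT, and 2.86 and 2.79% in MGT. As the genes were chosen for lying under MGT, a smaller share with shPtbp1 than with MGT was fixed in advance. The median log2 fold change of these 453 genes was -1.49 against MGT alone, where they were chosen, and -0.18 against shNT. It was -1.37 in shNT against MGT alone, which shares the MGT libraries used in the choice. For the 41 genes that were at least 2-fold higher, chosen in the same way, the medians were 1.21, 0.60 and 0.56 in that order. The part that the macrophage markers play in these counts was not tested.

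**Figure D4:**
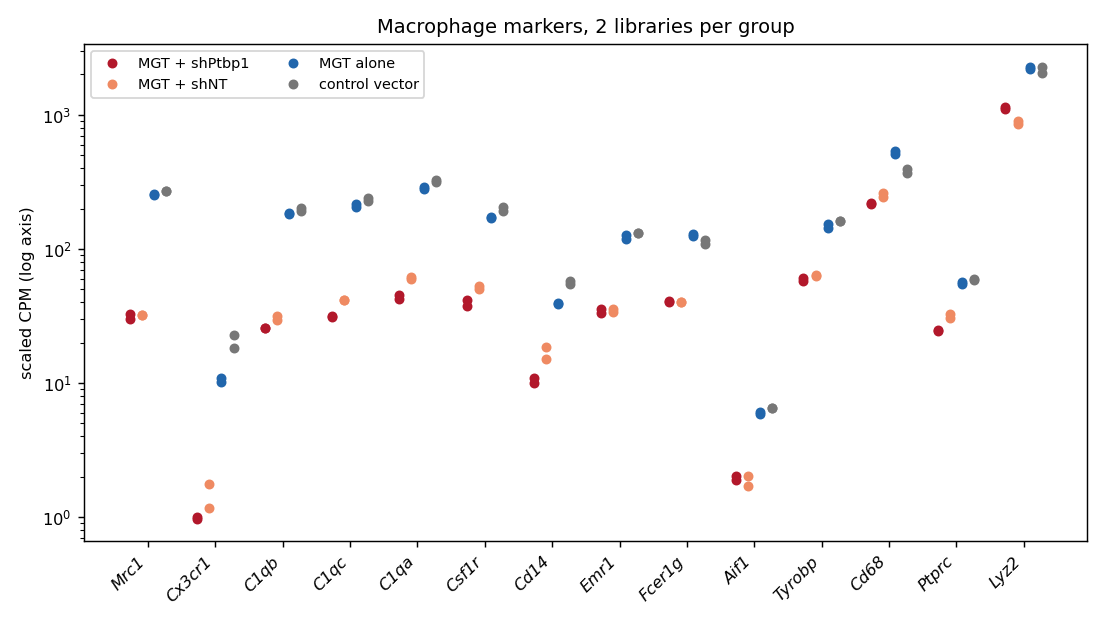
Scaled CPM (log axis) of the 14 macrophage markers in each library of MGT + shPtbp1, MGT + shNT, MGT alone and the control vector. In each marker both hairpin groups lie under the MGT and control groups, with Mrc1 at 32.9 and 30.0 with shPtbp1 against 256.5 and 251.0 with MGT alone.

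Promoters of the members were searched for the letters AGGAAGT on both strands, the core bound by ETS-family factors such as PU.1, the myeloid master regulator. A match is only a run of letters, and a gene with several windows counted if any of them held it. The 2-fold lower genes were chosen by their fall, and 70 of the 453 entered through the MGT libraries only. The share was not read for genes lower with shNT, and whether the letters have a part in the falls was not tested. The windows reach from 250 bases before to 50 after the RefSeq start in GRCm38.p6. Of 338 genes that were at least 2-fold lower and had a window, 113 held a match, or 33.4%, against 995 of 9460 members (10.5%) and 2886 of all 27025 genes (10.7%). Of 27 genes that were at least 2-fold higher, 2 held one (7.4%). Among the 15 largest decreases 13 had a window and 7 a match, and among the macrophage markers 9 had a window and 5 a match. The windows of 3 of the genes above are shown, with the match in capitals, which on the gene's strand reads as the reverse complement in each. They lie at chr2:14229164-14229463 (Mrc1, plus strand), chr4:136886151-136886450 (C1qb, minus strand) and chr4:136892865-136893164 (C1qc, minus strand).
Mrc1: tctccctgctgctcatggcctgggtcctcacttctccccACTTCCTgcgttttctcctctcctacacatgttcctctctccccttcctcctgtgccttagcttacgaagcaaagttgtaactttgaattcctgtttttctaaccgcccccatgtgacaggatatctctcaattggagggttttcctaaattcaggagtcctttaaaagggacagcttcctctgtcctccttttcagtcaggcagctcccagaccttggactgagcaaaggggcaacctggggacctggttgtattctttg
C1qb: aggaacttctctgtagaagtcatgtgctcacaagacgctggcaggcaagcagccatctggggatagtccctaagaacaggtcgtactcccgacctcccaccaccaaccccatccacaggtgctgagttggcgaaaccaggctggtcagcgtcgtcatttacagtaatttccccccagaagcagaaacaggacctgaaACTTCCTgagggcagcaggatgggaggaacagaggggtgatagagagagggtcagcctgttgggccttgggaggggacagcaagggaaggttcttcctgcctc
C1qc: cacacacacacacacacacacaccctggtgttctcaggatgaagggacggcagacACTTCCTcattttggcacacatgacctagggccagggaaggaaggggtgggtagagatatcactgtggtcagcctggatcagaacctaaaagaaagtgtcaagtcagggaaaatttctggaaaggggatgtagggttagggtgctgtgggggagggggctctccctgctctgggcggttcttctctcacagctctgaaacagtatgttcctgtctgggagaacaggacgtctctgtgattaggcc

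Beyond the 14 markers, genes chosen for a call in both hairpin groups and none between them were read. The neutrophil and macrophage collagenase gene Mmp8 had 8.73 and 8.17 scaled CPM in the shPtbp1 libraries, 9.1 and 7.99 in shNT and 52.1 and 45.3 in MGT. The scavenger receptor gene Marco had 3.65 and 3.46 scaled CPM in the shPtbp1 libraries, 4.02 and 3.17 in shNT and 19.8 and 21.8 in MGT. P2ry13, a nucleotide receptor, had 1.66 and 1.27 scaled CPM in the shPtbp1 libraries, 1.36 and 1.45 in shNT and 10.6 and 11.1 in MGT. In these 3 and in Bcl2a1d, Ms4a6c, Tbxas1, Stab1 and Mrc1, chosen for no call between the hairpin groups, the difference between shPtbp1 and shNT ran from -0.22 to 0.11. A p over the threshold does not show that they were alike.

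Some genes were higher with shPtbp1 and with shNT than with MGT alone, and were chosen for no call between the hairpin groups. Emcn, which encodes the endothelial glycoprotein endomucin, had 23.5 and 27.3 scaled CPM in the shPtbp1 libraries, 23.3 and 21.8 in shNT and 9.67 and 10.2 in MGT. It gave a log2 fold change of 1.31 ± 0.0687 (SE, adjusted p = 9.94e-12) against MGT alone and 0.16 against shNT (adjusted p = 0.0742). Mest, an imprinted gene of mesoderm, had 126 and 139 scaled CPM in the shPtbp1 libraries, 131 and 129.9 in shNT and 57.6 and 62.3 in MGT, or 1.13 against MGT alone and 0.02 against shNT. Smad6, which inhibits BMP signalling, had 65.5 and 70.3 scaled CPM in the shPtbp1 libraries, 72.8 and 71.1 in shNT and 34.7 and 35.7 in MGT. In each of these 3 genes MGT alone was the lowest of the 3 MGT groups, as their choice required. For Mest the control vector libraries lay lower still, at 41.6 and 47.3 scaled CPM.

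Kcnj5, a potassium channel subunit of atrial muscle, had 122 and 126 scaled CPM in the shPtbp1 libraries, 137 and 130.2 in shNT and 69.3 and 67.7 in MGT. The heat shock protein gene Hspa1a had 12.9 and 15.1 scaled CPM in the shPtbp1 libraries, 14.1 and 12.3 in shNT and 8.03 and 6.95 in MGT. Both were called against MGT alone (0.85 and 0.86) and not against shNT (-0.11 and 0.08). Nrep, Sparcl1 and Ctla2a, picked by the same rule, had 0.96, 0.93 and 0.92 against MGT alone, and 0.95, 1.02 and 0.79 in shNT against MGT alone.

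Other large increases lay further up with shPtbp1 than with shNT. Egr1, an immediate early transcription factor gene, had 296 and 308 scaled CPM in the shPtbp1 libraries, 257 and 233 in shNT and 90.2 and 96.3 in MGT. Angptl4, which inhibits lipoprotein lipase, had 15.4 and 18.3 scaled CPM in the shPtbp1 libraries, 10.7 and 10.7 in shNT and 5.94 and 5.53 in MGT. The laminin chain gene Lamc3 had 11.8 and 10.5 scaled CPM in the shPtbp1 libraries, 8.49 and 8.72 in shNT and 3.13 and 2.71 in MGT. All 3 rose against MGT alone (1.69, 1.47 and 1.77) and by less against shNT (0.31, 0.63 and 0.35, adjusted p = 2.33e-05, 1.17e-06 and 0.036).

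Plvap, of the diaphragms of fenestrated endothelium, had 19.9 and 23.9 scaled CPM in the shPtbp1 libraries, 18.2 and 16.9 in shNT and 8.44 and 9.11 in MGT. G0s2, an inhibitor of fat breakdown, had 38.1 and 43 scaled CPM in the shPtbp1 libraries, 24.7 and 26 in shNT and 18 and 18.7 in MGT. Gabbr1, a subunit of the receptor for the transmitter GABA, had 67.3 and 62.9 scaled CPM in the shPtbp1 libraries, 36.6 and 36.7 in shNT and 29.4 and 27.7 in MGT. These were the remaining genes of the 15 largest increases, and in each the shPtbp1 libraries were highest, the shNT libraries next and MGT lowest.

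Of the 12 endothelial markers 9 rose, 1 fell (2 with trimmed-mean scaling or edgeR) and 2 did not pass against MGT alone, with a median of 0.46, beside 26.4% higher and 20.9% lower over all members. Of the 12, 1 (Robo4) reached 1 CPM with shPtbp1 and not with MGT alone, and so had to be higher. The fall was in Vwf, von Willebrand factor, with 7.12 and 7.5 scaled CPM in the shPtbp1 libraries, 9.33 and 8.51 in shNT and 26.1 and 27.3 in MGT. Tie1 and Egfl7, both of vessel endothelium, rose by 0.86 and 0.86. The summed level was 633.6 and 636.3 scaled CPM in the shPtbp1 libraries against 540.1 and 575.9 in MGT, and 666.5 and 657.2 in shNT. In shNT against MGT alone 8 rose and 1 fell (background 26.1% and 21.1%).

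Some genes were called against shNT and lay near their MGT-alone level with shPtbp1. They were chosen for no call and a difference under 0.25 against MGT alone, so this is a description. Mb, the muscle oxygen store myoglobin, had 19.4 and 20.1 scaled CPM in the shPtbp1 libraries, 7.5 and 6.67 in shNT and 19.9 and 20.1 in MGT. Its difference was 1.42 against shNT and -0.02 against MGT alone (adjusted p = 0.844). Myh8, a perinatal skeletal myosin whose reads may mix with those of its close copies, had 16.8 and 13.7 scaled CPM in the shPtbp1 libraries, 3.03 and 3.43 in shNT and 18.1 and 18.1 in MGT. It differed from MGT alone by -0.25 (adjusted p = 0.0538), which passed in several alternatives, with adjusted p between 0.0107 and 0.049 there.

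Sgcd, a sarcoglycan of the muscle membrane, had 17.8 and 16.7 scaled CPM in the shPtbp1 libraries, 7.8 and 8.48 in shNT and 15.5 and 15.4 in MGT. Ano1, a calcium-activated chloride channel gene, had 13 and 12.9 scaled CPM in the shPtbp1 libraries, 5.64 and 6.09 in shNT and 14.9 and 14.4 in MGT. Alpl, an alkaline phosphatase gene, had 10.6 and 9.88 scaled CPM in the shPtbp1 libraries, 4.62 and 4.56 in shNT and 10.9 and 10.7 in MGT. In these and in Ccdc3, Abca4 and Necab1 the shNT libraries were the low ones, with log2 fold changes between -0.85 and -1.25 against MGT alone. In the other direction, Ptprz1, a receptor phosphatase gene, had 52.6 and 47.6 scaled CPM in the shPtbp1 libraries, 102 and 97.9 in shNT and 47.4 and 49 in MGT. Thsd4, Polq, Stx1a, the Notch target Heyl, Dusp8, Scube2 and the iron exporter gene Slc40a1 likewise were higher in shNT, by 0.69 to 1.00 over MGT alone, and differed by -0.18 to 0.15 between shPtbp1 and MGT alone. Ano1 (adjusted p = 0.039) and Polq (adjusted p = 0.0345) passed against MGT alone with trimmed-mean scaling, and with edgeR (adjusted p = 0.0246 and 0.0333). Polq also passed with upper-quartile scaling and without MGT replicate 1.

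Gene lists by function were read against the background of 26.4% higher and 20.9% lower for shPtbp1 against MGT alone. For every function list below, the background was 18.2% higher and 19% lower for shPtbp1 against shNT. For shNT against MGT alone it was 26.1% higher and 21.1% lower. Sarcomere genes, which build the contractile unit, rose in 12 of 23, fell in 2 and did not pass in 9, with a median of 0.21. Tnni3, cardiac troponin I, had 31.9 and 36 scaled CPM in the shPtbp1 libraries, 22.3 and 22.6 in shNT and 19 and 22 in MGT. Ldb3, a Z-disc protein gene, had 321 and 322 scaled CPM in the shPtbp1 libraries, 214 and 217 in shNT and 209 and 214 in MGT. Both were higher than MGT alone, by 0.71 and 0.60, and Myoz2 by 0.45.

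Actc1, cardiac actin, went the other way, with 143 and 158 scaled CPM in the shPtbp1 libraries, 135 and 136 in shNT and 227 and 233 in MGT. It fell by 0.61 on the log2 scale against MGT alone and lay 0.15 above shNT. The second fall was in titin, Ttn (-0.27), named after its value was seen. The list had 1 fall, not 2, when shPtbp1 replicate 2 or either MGT replicate was left out. Against shNT 16 of the 23 rose and 2 fell, and in shNT against MGT alone 2 rose and 7 fell. Summed, sarcomere genes came to 11075.2 and 11613.6 scaled CPM in shPtbp1 libraries, 8827.4 and 9292.6 in shNT, and 9697.7 and 10059.2 in MGT.

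Genes of calcium handling and ion channels were split, with 6 higher, 6 lower and 8 not passing of 20. The largest rise was in Kcnj5 and then in Kcnh2 (0.49), a potassium channel of repolarisation. Kcnj2, the inward rectifier channel, fell by 0.69 on the log2 scale. The pacemaker channel gene Hcn4 had 0.845 and 1.1 scaled CPM in the shPtbp1 libraries, 0.355 and 0.161 in shNT and 1.47 and 1.52 in MGT, with a log2 fold change against MGT alone of -0.44 that did not pass without shPtbp1 replicate 1 (adjusted p = 0.143) or without either MGT replicate (0.0548 and 0.0746).

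Of 12 cardiac transcription regulators 7 rose and 2 fell. Tbx20 had 579 and 573 scaled CPM in the shPtbp1 libraries, 542 and 516 in shNT and 440.3 and 448 in MGT. Hand2 had 41.1 and 43.4 scaled CPM in the shPtbp1 libraries, 37.8 and 40.9 in shNT and 28.6 and 29.9 in MGT. Both rose against MGT alone (0.38 and 0.52), as did Prox1 (0.42). Myocd, a coactivator of muscle genes, fell by 0.67, with 8.27 and 7.64 scaled CPM in the shPtbp1 libraries, 15.8 and 14 in shNT and 13 and 12.8 in MGT. The other fall was in Smyd1 (-0.28, named after its value was seen), and the count of falls was 1 without shPtbp1 replicate 1 or either MGT replicate. In shNT against MGT alone 8 rose and 1 fell.

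Among 18 skeletal and smooth muscle genes 6 rose and 6 fell. Txlnb and Trim72 rose most. Tnni2, a fast skeletal troponin, had 0.512 and 0.494 scaled CPM in the shPtbp1 libraries, 0.447 and 0.519 in shNT and 1.93 and 1.96 in MGT, low in both hairpin groups and let in through the MGT libraries. Cnn1, calponin of smooth muscle, had 20.3 and 20.9 scaled CPM in the shPtbp1 libraries, 35 and 37.9 in shNT and 38 and 38.6 in MGT, a fall of 0.88 on the log2 scale against MGT alone and of 0.81 against shNT.

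Matrix genes did not move one way: 12 rose, 10 fell and 10 did not pass of 32. Besides Fmod, the basement membrane collagen gene Col15a1 had 89.4 and 91.9 scaled CPM in the shPtbp1 libraries, 58.5 and 60.9 in shNT and 51.3 and 53.7 in MGT, a rise of 0.78. Mfap5, of elastic microfibrils, rose by 0.58 and Col12a1, of fibril surfaces, fell by 0.62. With shNT, Mfap5 and Col12a1 differed from MGT alone by 0.54 and -0.63.

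Signalling lists were mixed too. In the TGF-beta and BMP pathway 8 rose, 10 fell and 7 did not pass of 25. The ligand Bmp6 had 23.7 and 25.7 scaled CPM in the shPtbp1 libraries, 16.3 and 15.3 in shNT and 14.3 and 15.2 in MGT. The BMP target Id1 rose by 0.76, and Id2 fell by 0.91, with 41.4 and 43.5 scaled CPM in the shPtbp1 libraries, 44.4 and 43.9 in shNT and 80.4 and 80.2 in MGT. In Bmp6 the shPtbp1 libraries stood apart from both other groups, and in Id2 both hairpin groups were low.

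The insulin-like growth factor axis had 5 rises and 5 falls in 13 genes, and 2 or 3 falls when shPtbp1 replicate 2 or either MGT replicate was left out. The growth factor Igf1, also made by macrophages, had 50.4 and 52.4 scaled CPM in the shPtbp1 libraries, 54.7 and 56 in shNT and 119.6 and 124 in MGT. Igf2 had 145 and 153 scaled CPM in the shPtbp1 libraries, 143 and 143 in shNT and 89 and 92.4 in MGT. The binding protein Igfbp3 had 132 and 127 scaled CPM in the shPtbp1 libraries, 78 and 83.8 in shNT and 82.8 and 84.9 in MGT, and Igfbp4 fell by 1.24. In Igfbp3 the shNT libraries lay near MGT alone (-0.05, adjusted p = 0.47), and in Igf1 and Igf2 they lay near shPtbp1.

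DNA replication genes were lower: 15 of 20 fell, none rose and 5 did not pass, with a median of -0.24. Cdt1, which licenses origins, had 10.4 and 9.63 scaled CPM in the shPtbp1 libraries, 10.3 and 11.2 in shNT and 19.6 and 17.7 in MGT. Pcna, the sliding clamp, had 72.3 and 78.1 scaled CPM in the shPtbp1 libraries, 84.2 and 87.1 in shNT and 112 and 112 in MGT. The helicase gene Mcm5 had 33.4 and 36.6 scaled CPM in the shPtbp1 libraries, 44.1 and 45.4 in shNT and 48.5 and 48.1 in MGT, and Cdc6 fell by 0.57. Shifts were graded, with shPtbp1 lowest and MGT highest in Pcna and Mcm5. Against shNT 11 fell and 1 rose, and in shNT against MGT alone 7 fell and none rose.

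Mitosis genes fell in 10 of 22, rose in 1 and did not pass in 11, with a median of -0.13. The 10 falls became 6 when shPtbp1 replicate 1 or MGT replicate 1 was left out, and the 1 rise, Kif20a (0.11, named after its value was seen), did not pass without any 1 of the 4 libraries. Mki67, the proliferation antigen, had 172 and 165 scaled CPM in the shPtbp1 libraries, 208 and 203 in shNT and 236 and 248 in MGT. The spindle checkpoint kinase gene Bub1 had 15.8 and 14.7 scaled CPM in the shPtbp1 libraries, 20.8 and 21.3 in shNT and 20.4 and 20.02 in MGT, and Aurkb and Bub1b each fell by 0.29. Against shNT 15 fell and none rose, and in shNT against MGT alone 8 rose and 1 fell.

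Of 20 p53 targets 8 rose and 6 fell. The feedback ubiquitin ligase Mdm2 had 157 and 152 scaled CPM in the shPtbp1 libraries, 165 and 164 in shNT and 121 and 119 in MGT, and Gdf15 rose by 0.43, which did not pass without MGT replicate 2 (adjusted p = 0.0506). Gadd45a and Sesn1 fell by 0.37 and 0.34. The rises were 5 without shPtbp1 replicate 2 or either MGT replicate, and the falls 3 without MGT replicate 1.

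In the unfolded protein and integrated stress response 4 rose and 7 fell of 22, and the rises were 1 or 2 without shPtbp1 replicate 1, shPtbp1 replicate 2 or MGT replicate 1. Atf3, a stress-induced transcription factor, had 14.7 and 14.8 scaled CPM in the shPtbp1 libraries, 26.8 and 27.5 in shNT and 27.8 and 28.3 in MGT, with shPtbp1 under both other groups. Sdf2l1, Trib3 and Psat1 fell by 0.64, 0.50 and 0.36. With shNT 14 of the 22 fell and 1 rose against MGT alone, and against shNT 11 rose and 2 fell.

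Of 16 inflammatory genes 10 fell and 1 rose, with a median of -0.43. The chemokine Ccl2, which draws in monocytes, had 58.3 and 64 scaled CPM in the shPtbp1 libraries, 63 and 57.2 in shNT and 131 and 124 in MGT. Ccl12, a related chemokine of the mouse, had 0.627 and 0.579 scaled CPM in the shPtbp1 libraries, 1.83 and 1.05 in shNT and 6.64 and 6.15 in MGT. Ccl12 and Ccl5 reached 1 CPM with MGT alone and not with shPtbp1, so their place in the comparison fixed their direction. Cxcl10 fell by 1.5, and the single rise was in the neutrophil chemokine Cxcl1 (0.81, named after its value was seen). With shNT 12 of 16 fell and none rose against MGT alone. The summed macrophage markers fell alongside, as given above, and their part in these falls was not tested.

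Interferon-response genes gave 8 rises and 10 falls in 30, and this list depended on single libraries. The rises were 18 without shPtbp1 replicate 2, and 5 without shPtbp1 replicate 1 or MGT replicate 1. Mx1, an antiviral GTPase, had 1.87 and 0.734 scaled CPM in the shPtbp1 libraries, 1.69 and 0.842 in shNT and 3.58 and 5.15 in MGT. Oas3, a sensor of double-stranded RNA, had 3.74 and 2.54 scaled CPM in the shPtbp1 libraries, 4.39 and 3.64 in shNT and 10.2 and 10.3 in MGT. Replicate 1 exceeded replicate 2 in both hairpin groups for Mx1, Oas3 and Oasl1, and the falls of these 3 were 1.49, 1.58 and 1.15 against MGT alone, with 0.83 for the immunoproteasome subunit Psmb9.

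Among 25 SR and hnRNP splicing factors, the general partners of the spliceosome, 6 rose, 2 fell and 17 did not pass. Tra2a rose by 0.34, Srsf11 by 0.21 and Srsf10 by 0.17. Hnrnpa1 (0.32), which has many processed copies in the genome, did not pass with edgeR (adjusted p = 0.0515) or without shPtbp1 replicate 2 (0.0861) or MGT replicate 2 (0.14). The rises were 3 without shPtbp1 replicate 2, and the falls, Srsf2 (-0.15) and Srsf5 (-0.11), both named after their values were seen, were 1 without any 1 of the 4 libraries. With shNT 10 rose and 1 fell against MGT alone.

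Of 22 muscle and neuronal splicing regulators 7 rose and 5 fell, near the shares over all members, with fewer falls without shPtbp1 replicate 2. Of the 22, 1 (Srrm4) reached 1 CPM with shPtbp1 and not with MGT alone, so its place in the comparison fixed its direction. After Ptbp2 the largest rises were in Mbnl3, with 12.9 and 11.3 scaled CPM in the shPtbp1 libraries, 20.1 and 19.5 in shNT and 8.91 and 8.88 in MGT, and in Matr3, a matrin that binds Ptbp1, with 216 and 213 scaled CPM in the shPtbp1 libraries, 176 and 176 in shNT and 161 and 160.2 in MGT. Mbnl3 was highest in shNT, so it rose against MGT alone (0.43) and was lower than shNT (-0.69). Nova1, a neuronal splicing regulator, rose by 0.40, which did not pass without shPtbp1 replicate 2 (adjusted p = 0.0639).

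Transcripts with exons known to be regulated by Ptbp1 were read at gene level, where 7 of 20 rose, 6 fell and 7 did not pass, with a median of 0.06. Gabbr1 and Fgfr2, a growth factor receptor with alternative exons, rose by 1.17 and 0.69. Fgfr2 had 36.8 and 38.9 scaled CPM in the shPtbp1 libraries, 28.6 and 28.9 in shNT and 23.8 and 22.9 in MGT. Hps1, a gene of lysosome-related organelles, had 7.57 and 7.45 scaled CPM in the shPtbp1 libraries, 12.5 and 12.1 in shNT and 15.4 and 14.3 in MGT. Its log2 fold change was -0.93 ± 0.082 (SE, adjusted p = 2.06e-08). In Fgfr2 and Hps1 the shPtbp1 libraries lay beyond the shNT libraries, away from MGT.

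Of 9 neuronal genes 4 rose and 3 fell. Rtn1, a reticulon of neuroendocrine cells, had 128 and 129 scaled CPM in the shPtbp1 libraries, 85.5 and 85 in shNT and 88.2 and 90.6 in MGT. Kif5c, a kinesin motor, had 5.95 and 4.83 scaled CPM in the shPtbp1 libraries, 9.57 and 8.52 in shNT and 11 and 10.6 in MGT. Gap43 rose by 0.58 and Kif5a by 0.48, the second not passing without MGT replicate 2 (adjusted p = 0.146).

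Mitochondrial genes were mostly a little higher. Oxidative phosphorylation genes rose in 15 of 27, fell in 1 and did not pass in 11, with a median of 0.15. Cox6b1, a cytochrome oxidase subunit, had 199 and 217 scaled CPM in the shPtbp1 libraries, 183 and 181 in shNT and 166 and 169 in MGT, and Ndufa1, Ndufa4 and Atp5o rose by 0.43, 0.29 and 0.27. The rises were 8 without shPtbp1 replicate 2, and the single fall, Ndufa2 (-0.12, named after its value was seen), did not pass when shPtbp1 replicate 1, shPtbp1 replicate 2 or MGT replicate 1 was left out.

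Fatty acid oxidation genes rose in 15 of 21, with a median of 0.16. Of these, 1 (Ppargc1a) was let in through the shPtbp1 libraries, which fixed its direction. Acaa2, a thiolase, had 125 and 138 scaled CPM in the shPtbp1 libraries, 89.4 and 94.3 in shNT and 101 and 98.7 in MGT. Acadl and Pdk4 rose by 0.39 and 0.42. The 1 fall was in the fatty acid transporter Cd36, also a macrophage scavenger receptor, with 154 and 152 scaled CPM in the shPtbp1 libraries, 221 and 223 in shNT and 301 and 311 in MGT. Against MGT alone, shNT had 11 rises and 4 falls in this list.

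Glycolysis genes went the other way, with 12 of 18 lower and 3 higher and a median of -0.16. Hk2, a hexokinase, had 79.9 and 75.5 scaled CPM in the shPtbp1 libraries, 92.7 and 83.4 in shNT and 107 and 108 in MGT. Ldhb, the heart form of lactate dehydrogenase, had 48.8 and 56.5 scaled CPM in the shPtbp1 libraries, 39.3 and 42.7 in shNT and 30.1 and 32.9 in MGT and rose by 0.73. Aldoc fell by 1.11, and Slc16a3 by 0.94, as given above. Against MGT alone, shNT had 10 falls and 4 rises in this list.

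Ribosomal protein genes rose in 18 of 30 and none fell, with a median of 0.12. Rpl11 had 644 and 704 scaled CPM in the shPtbp1 libraries, 608 and 621 in shNT and 559 and 581 in MGT. Rpl23 had 959 and 1025 scaled CPM in the shPtbp1 libraries, 864 and 914 in shNT and 829 and 851 in MGT. Reads of these genes may be shared with processed copies, and the rises were 7 without shPtbp1 replicate 2 and 9 without MGT replicate 2, against 12 with trimmed-mean scaling. In shNT against MGT alone none rose and 1 fell, and against shNT 25 rose.

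Cholesterol synthesis genes fell in 9 of 19 and none rose, with a median of -0.13. Hsd17b7 fell by 0.66, Dhcr7 by 0.48 and Lss by 0.35. Against shNT 9 genes of the list fell and 1 rose.

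**Figure D5:**
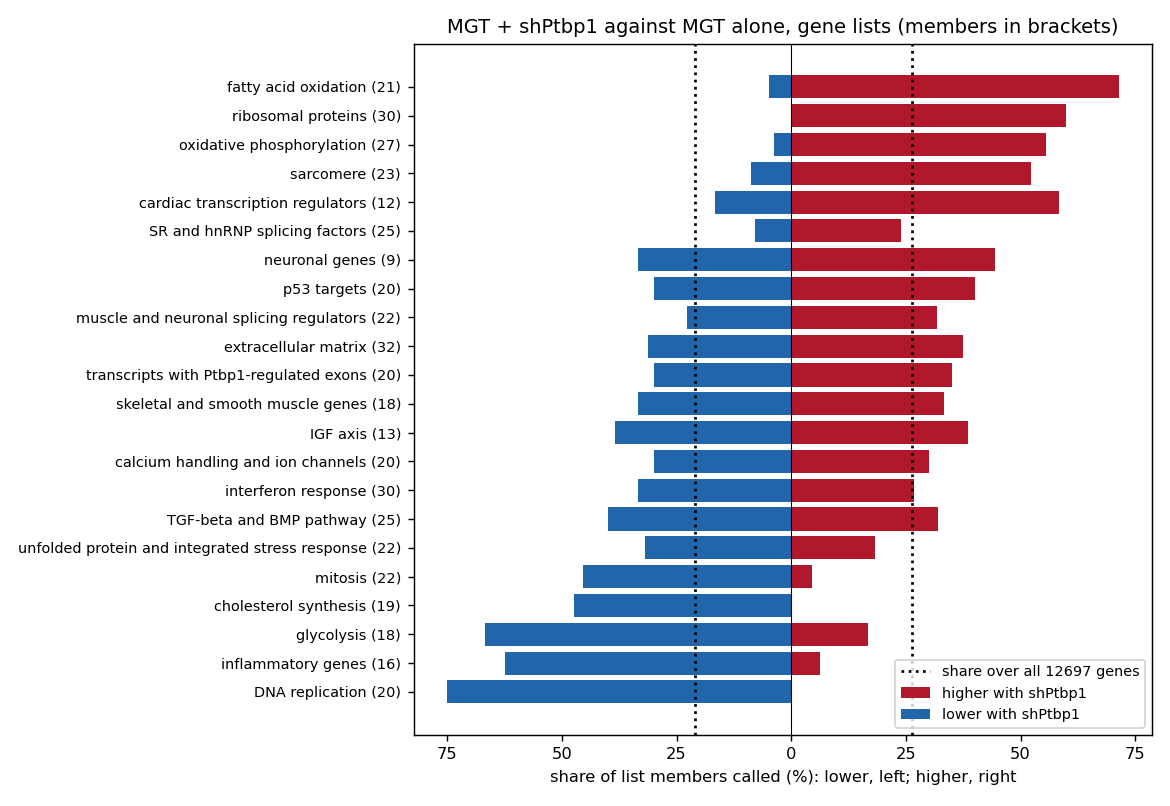
Share of the genes of each of 22 function lists that were higher (right, red) or lower (left, blue) with MGT + shPtbp1 than with MGT alone at an adjusted p under 0.05, with the number of genes in brackets and dotted lines at the shares over all 12697 genes. Among these lists DNA replication (15 of 20 lower), inflammatory and glycolysis genes reach furthest left, and fatty acid oxidation (15 of 21 higher), ribosomal protein and cardiac transcription regulator genes furthest right.

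The starting cells' own markers were checked in the same libraries, and the cell type lists too are read beside 26.4% higher and 20.9% lower over all members. Of 16 fibroblast markers 11 rose, 1 fell and 4 did not pass against MGT alone, with a median of 0.24. The fibroblast transcription factor gene Tcf21 had 193 and 199.8 scaled CPM in the shPtbp1 libraries, 173 and 176 in shNT and 122 and 133 in MGT. Cd248, S100a4 and Lum rose by 0.48, 0.44 and 0.35. Summed, the list came to 22112.3 and 21052.7 scaled CPM in the shPtbp1 libraries, 21193.9 and 20805.5 in shNT, and 20413.1 and 20462.0 in MGT.

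Cardiomyocyte markers rose in 7 of 14 and fell in 3, with fewer falls without MGT replicate 1. Of the 14, 1 (Nppb) reached 1 CPM with MGT alone and not with shPtbp1, so its place in the comparison fixed its direction. Against shNT 10 rose and none fell (background 18.2% and 19%). In shNT against MGT alone 2 rose and 5 fell (background 26.1% and 21.1%). Myh7, the slow cardiac myosin, had 10.3 and 9.54 scaled CPM in the shPtbp1 libraries, 6.33 and 7.14 in shNT and 7.25 and 7.04 in MGT. Their sum was 5011.1 and 5343.2 scaled CPM in the shPtbp1 libraries, 4163.9 and 4436.8 in shNT, and 4313.4 and 4507.0 in MGT. Fresh cardiomyocytes, set beside these cultures for scale, had 21161.2 and 20302.9.

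Of 10 epicardial and mesothelial markers 4 were higher, 3 were lower and 3 did not pass. The surface protein gene Lrrn4 had 18.6 and 16.6 scaled CPM in the shPtbp1 libraries, 28.5 and 26.7 in shNT and 9.16 and 9.32 in MGT, highest in shNT. Upk3b rose by 0.53 and Krt19 fell by 0.91. Krt18 (-0.32) did not pass without shPtbp1 replicate 2 or MGT replicate 2 (adjusted p = 0.288 and 0.105).

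Of 8 pericyte and smooth muscle markers 1 rose and 3 fell, and 2 rose without shPtbp1 replicate 1 or MGT replicate 2. Notch3 rose by 0.38, with 73.2 and 68.7 scaled CPM in the shPtbp1 libraries against 54.5 and 54.6 in MGT. Abcc9 fell by 0.39, and Cspg4 (-0.26) did not pass without MGT replicate 2 (adjusted p = 0.0559). Of the lymphocyte markers 1 was a member, Cd4, with 1.08 and 1.57 scaled CPM in the shPtbp1 libraries, 0.894 and 0.911 in shNT and 7.39 and 8.03 in MGT. Of the erythroid markers 1 was a member, Epor, with 0.896 and 0.762 scaled CPM in the shPtbp1 libraries against 1.45 and 1.66 in MGT; it was let in through the MGT libraries, which fixed its direction.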

How the data were processed

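Polyadenylated RNA of 12 libraries in 6 groups of 2 was sequenced from TruSeq stranded libraries, per the labels' protocols. CPM of 23423 genes were deposited by the authors in 1 table. FastQC, TopHat2 2.1.0, HTSeq 0.6.1p1 and mm10 stand in the submitters' processing notes. Neither the annotation nor the strand setting of the counting is known here, and values of overlapping genes and close copies are uncertain for that reason. The CPM came out as whole reads in 100% of values within a tolerance of 0.1 reads.

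Each library was scaled by a size factor, the median of ratios to the geometric mean. The fit took 13977 genes (1 CPM or more in any 2 libraries) on log2(scaled CPM + 0.5). It used limma 3.58.1 under R 4.3.3, a mean for each of the 6 groups, a trended prior and 6 residual degrees of freedom. P-values are two-sided and adjusted over all 13977 genes by the Benjamini-Hochberg method, with calls at 0.05, and counts are over the 12697 genes of the comparison. No permutation test was run, since 2 libraries against 2 give p = 0.333 at the lowest. The procedure was tested on simulated data. Alternatives were other scalings, pseudocounts and filters, fits on fewer libraries, a replicate block, each replicate left out, and edgeR 4.0.16 on recovered reads. Figures were drawn with matplotlib 3.10.9.

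Named genes are Ptbp1, Ptbp2, Ptbp3 and the delivered factors, and genes whose higher group reached 10 scaled CPM or more. Of those, the 15 largest changes each way against MGT alone without overlap of replicates were taken, and the 10 each way called against both MGT alone and shNT. To them came 8 each way called in both hairpin groups against MGT alone and not between the hairpins, and 8 each way called against shNT with under 0.25 log2 units against MGT alone. Of each of 22 function lists and 8 cell type lists up to 4 genes with the largest change were added. Members and lists were chosen with earlier results of these data known. Predicted genes and 27 rows whose name is a number were not named, and 1 gene that the rule names is not reported here.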

Additional observations from a re-analysis of the deposited data

How the results depend on the processing

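Of the counts of called genes, those with no fold limit stayed within 1.5 times under every alternative, and so did the genes at least 2-fold lower than MGT alone (453 with shPtbp1, 441 with shNT). Counts of other 2-fold changes moved with the pseudocount of 0.5 and with edgeR. The genes at least 2-fold higher than MGT alone numbered 41, and 70 with a pseudocount of 0.1, 18 with 2, and 71 with edgeR on recovered reads. Against shNT, 57 were 2-fold higher (89, 20 and 99 in that order) and 28 lower (48, 12 and 54). In shNT against MGT alone, 35 were 2-fold higher (55, 11 and 55).

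With each replicate left out in turn, the genes higher than MGT alone numbered 2437 to 2963 and the lower ones 2178 to 2484, with 40 to 49 and 442 to 469 at 2-fold. Against shNT these ranges were 1641 to 2088, 1626 to 2240, 56 to 63 and 22 to 37. In shNT against MGT alone they were 2419 to 2665, 2210 to 2275, 34 to 38 and 438 to 457. Without MGT replicate 1, 4518 of the 6008 calls against MGT alone stayed called the same way, the fewest of the replicates left out.

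Trimmed-mean scaling gave 2841 higher and 2978 lower against 3357 and 2651, and moved the median over all members to 0.0066. With the replicate number as a block 3303 were higher and 2609 lower, 5882 of the calls stayed, and no named call changed. Deviations of same-numbered libraries correlated at -0.013 between shPtbp1 and MGT, 0.015 between shNT and MGT, and 0.161 between shPtbp1 and shNT. With 2 libraries a group and no label of a shared batch, the numbers were not taken as pairs. Against shNT the block gave 2262 higher and 2364 lower. Of 168 named genes tested against MGT alone none reversed under any alternative run. Trimmed-mean scaling gained 4 of their calls, edgeR gained 5 and lost 1, keeping genes of all levels lost 3, and leaving out MGT replicate 2 lost 6. In a fit that leaves out a replicate, the lone library of that group is assumed to vary like the other groups.

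Depth was at least 73199831 assigned reads in the 4 libraries, and 41.5% of the genes under 5 scaled CPM were called. With 2 libraries a group the spread rests on all 6 groups, and 1 hairpin and 1 day were measured.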

Other observations

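Levels of the genes that stood apart with shPtbp1 were also read in the freshly isolated cells. The libraries of these cells were part of the fit and its estimate of spread, but no test above compared them. Txlnb averaged 72.3 scaled CPM with shPtbp1, 40.8 ± 0.708 in fresh cardiomyocytes and 6.51 ± 0.177 in fresh fibroblasts (SD, n = 2 each), so the shPtbp1 mean lay above both. Corin averaged 38.7 with shPtbp1, 40.1 ± 1.46 in cardiomyocytes and 16.8 ± 0.741 in fibroblasts. Car14 averaged 16.6 with shPtbp1, 25.3 ± 1.93 in cardiomyocytes and 2.22 in fibroblasts.

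Trim72 averaged 47.4 scaled CPM with shPtbp1, 8.67 ± 0.361 in cardiomyocytes and 0.998 ± 0.152 in fibroblasts, which were both under every MGT culture. The proteoglycan genes Prelp and Fmod had 137 and 35.2 in cardiomyocytes, and 438 and 107 in fibroblasts. Ptbp2 averaged 135 with shPtbp1 and 26.4 with MGT alone, and 52.5 ± 0.234 in cardiomyocytes and 67.7 ± 0.362 in fibroblasts. Mb, at 19.4 to 20.1 in the shPtbp1 and MGT cultures, averaged 986 in cardiomyocytes and 78.4 in fibroblasts.

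Summed macrophage markers were 1661.5 and 1711.2 scaled CPM in the shPtbp1 libraries, and 1355.9 and 1346.8 in the fresh fibroblasts.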
